A study of Mus musculus with 2 samples.

Results

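SR proteins are splicing factors that pair RNA recognition motifs with a domain rich in arginine and serine. They were followed here through 10 mouse genes, Srsf1, Srsf2, Srsf3, Srsf4, Srsf5, Srsf6, Srsf7, Srsf9, Srsf10 and Srsf11, chosen by symbol from the 55536 annotated genes. The 10 genes have 85 annotated transcripts. RNA came from the nuclear fraction of primary macrophages derived from the bone marrow of C57BL/6J mice and exposed to Lipid A, the part of bacterial lipopolysaccharide that activates Toll-like receptor 4, at 100 ng/ml for 10 minutes. All RNA was sequenced after removal of ribosomal RNA. The 2 libraries form 1 group with no genetic change: replicate 1 started from 1 µg of RNA and replicate 2 from 500 ng. Some labels call the fraction nucleoplasmic and others nucleus, and RNA bound to chromatin may or may not be part of it. The libraries come from separate biosamples of 1 donor identifier, and separate animals are not stated, so their spread may be partly technical. Cells without Lipid A and other times are not analysed here, so nothing below is a response to Lipid A.

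SR proteins bind exons, help the splicing machinery find nearby splice sites, and also act in RNA export and translation. Many SR genes carry a so-called poison exon, a short exon with a premature stop codon, inside a long and highly conserved intron. Including that exon, or keeping the intron, can give an RNA that makes no full protein, and several SR proteins are known to limit their own amount in this way. RNAs with a stop well before the last exon junction can be destroyed by nonsense-mediated decay, which acts during translation, whereas RNAs that keep an intron are often held in the nucleus. The annotation sorts the transcripts into 4 types: coding, retained intron, nonsense-mediated decay, and processed transcript, a type with no assigned reading frame. These types are labels of transcript models and do not measure decay.

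The premature stops are shown first because they end the reading frame of the poison exon transcripts. All 15 members' transcripts annotated for nonsense-mediated decay have a stop codon more than 50 bases before the last exon junction. The type is assigned by such a stop, so this count was fixed by the annotation. In 10 of the 15 the stop lies in an exon that does not overlap any exon of the gene's most abundant coding transcript. Of 27 coding transcripts, only Srsf2-206 has a stop that far upstream, at 217 bases. Each line below runs from the first base of the extra exon to the stop codon, or gives the last 30 bases where that stretch is longer. The stop is in capitals. Sequences and coordinates are those of the GENCODE M21 transcripts on mm10, given in the sense of the gene.
Srsf3-201, exon 4, plus strand, chr17:29039454-29039487: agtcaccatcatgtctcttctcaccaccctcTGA
Srsf7-203, exon 4, minus strand, chr17:80205054-80205081: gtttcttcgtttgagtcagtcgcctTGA
Srsf11-206, exon 4, minus strand, chr3:158024209-158024231: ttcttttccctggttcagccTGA
Srsf6-201, exon 3, plus strand, last 30 bases: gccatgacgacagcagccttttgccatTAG
Srsf4-204, exon 1, plus strand, last 30 bases: gtaacccggttgtctcatgccccagctTAG
Srsf9-205, exon 2, plus strand, last 30 bases: cctgggttggagattacggattcacagTAG
The stop is reached 34 bases into the 456-base exon of Srsf3, 28 bases into the 460-base exon of Srsf7 and 23 bases into the 109-base exon of Srsf11. It comes 152 bases into the 268-base exon of Srsf6 and 82 bases into the 358-base exon of Srsf9. In Srsf1-204 the stop lies instead in an exon that falls within the last exon of the coding Srsf1-205, downstream of the stop codon used there.

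Each gene's level was read in TPM, a gene's share of all transcripts in a library after correction for length, so levels can be compared between genes. All 10 genes were above 1 TPM in both libraries. Summed over the 10 genes, replicate 1 had 968 TPM and replicate 2 had 1076 (1022 ± 76.3, SD, n = 2), which was 0.339 ± 0.0367% of the TPM of all protein-coding genes. Libraries held 19153465 and 11622346 expected counts over annotated genes, and the members' own expected counts ran from 233 for Srsf9 in replicate 2 to 10962 for Srsf5 in replicate 1.

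Srsf5, an SR protein with a pair of RNA recognition motifs, had the highest level, 312 TPM in replicate 1 and 352 in replicate 2. Srsf11, a distant SR family member, stood at 175 and 251 TPM. Srsf2, which promotes constitutive splicing and is a marker of nuclear speckles, stood at 191 and 204 TPM. The values of Srsf11 span both values of Srsf2, so these neighbours in the order did not differ beyond their spread.

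A middle group of 4 genes followed. Srsf3, a small SR protein that also serves as an export adaptor, had 61.7 and 51.6 TPM. Srsf10, which can act as a splicing repressor when dephosphorylated, had 54.1 and 52.4 TPM. Srsf6 had 53.6 and 50.3 TPM. Srsf1, the founding member of the family, had 44.7 and 52.2 TPM. From Srsf3 to Srsf1 each gene's library values overlapped those of the next.

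The lowest 3 were Srsf7, Srsf9 and Srsf4. Srsf7, whose protein carries a zinc knuckle beside its RNA recognition motif, had 33.0 and 27.5 TPM. Srsf9 had 22.4 and 17.1 TPM, which overlapped Srsf4 at 19.9 and 18.1 TPM. Even Srsf4 was above 70.2% of the protein-coding genes detected at 1 TPM, and Srsf5 was above 99.5% of them. Srsf12, the family member outside the 10, was at 0.03 TPM in both libraries, from 2 counts and 1 count.

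**Figure D1:**
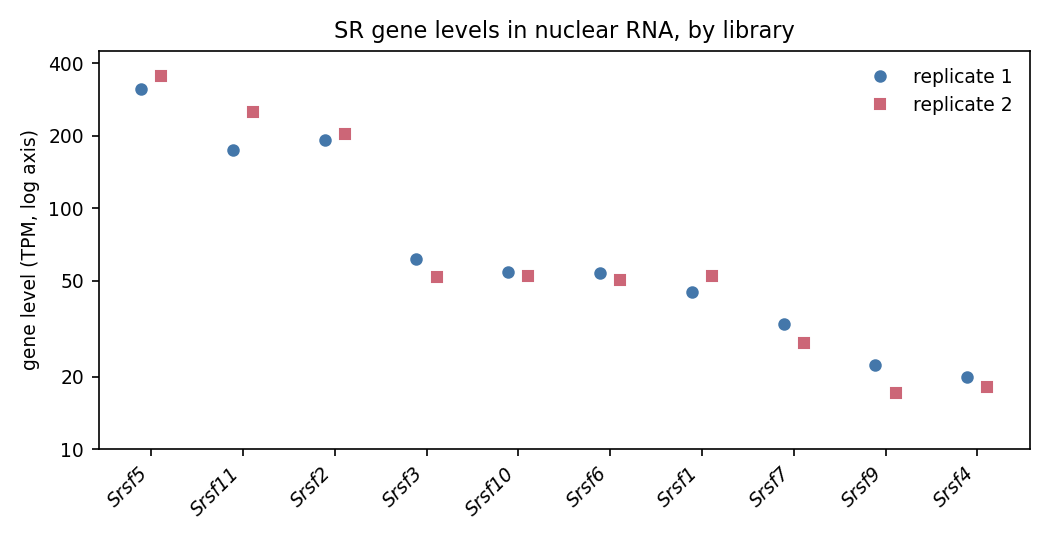
Level of each SR gene (TPM, log axis) in replicate 1 (circles) and replicate 2 (squares), ordered by mean. Srsf5, Srsf11 and Srsf2 lie at 175 TPM or more in both libraries, and the other 7 genes at 61.7 TPM or less.

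Most of the members' TPM was not assigned to coding transcripts. Summed over the 10 genes, 35.0 ± 2.46% of TPM was in coding transcripts, 49.6 ± 3.87% in retained intron transcripts, 2.99 ± 0.172% in nonsense-mediated decay transcripts and 12.5 ± 1.58% in processed transcripts (SD, n = 2). Retained intron transcripts are annotated for 8 of the genes. Srsf9 and Srsf10 have none, so their share is 0 by construction. Only annotated transcripts were counted, so RNA not yet spliced was not told apart from RNA that keeps an intron. Srsf3-210, for example, is a retained intron model of 1 exon with 96.0% of its bases in introns of the coding Srsf3-202. In bulk RNA, fewer nuclei with a transcript and less of it per nucleus cannot be told apart.

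Srsf11 had the highest retained intron share, 85.8% of its TPM in replicate 1 and 82.8% in replicate 2 (84.3 ± 2.08%). Part of that share lay in models with little intron sequence. Srsf11-213, at a mean of 42.1 TPM, has 16.0% of its bases in introns of the coding Srsf11-202. Srsf11-211, at a mean of 30.9 TPM, has 13.8%. Srsf3 had 68.0% and 68.2% (68.1 ± 0.162%), the closest pair of libraries among the 8 genes. Srsf7 had 56.0% and 61.5% (58.8 ± 3.89%). In these 3 genes coding transcripts held a smaller share in both libraries, 14.4 ± 2.69% in Srsf11, 18.9 ± 0.881% in Srsf3 and 34.0 ± 5.42% in Srsf7.

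Srsf2 had retained intron shares of 45.2% and 51.9%, beside coding shares of 53.3% and 40.6%, so the larger type differed between its libraries. Srsf5 had retained intron shares of 39.3% and 44.5%, above its coding shares of 28.1% and 30.8%. The remaining 3 genes had more coding than retained intron RNA in both libraries. Srsf6 had retained intron shares of 35.9% and 33.4%, and Srsf4 had 20.0% and 19.3%. Srsf1 had the widest gap between libraries, 23.1% and 38.8% (30.9 ± 11.1%). Its leading retained intron transcript, Srsf1-203, a 759-base model, stood at 5.70 TPM in replicate 1 and 17.0 in replicate 2, and holds 0 bases of the introns of Srsf1-205. As a share of expected counts, which gives short models less weight, the retained intron share of Srsf1 was 6.19 ± 3.18%, and that of Srsf5 was 66.6 ± 2.05%.

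**Figure D2:**
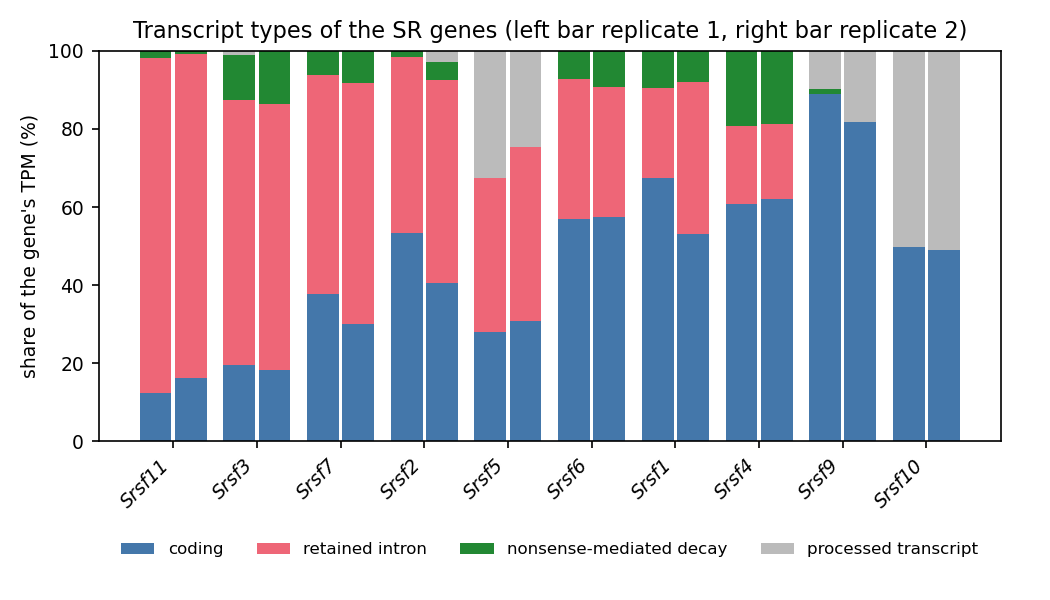
Share of each gene's TPM (%) in coding, retained intron, nonsense-mediated decay and processed transcripts, with replicate 1 as the left bar and replicate 2 as the right bar of each pair. Genes are ordered by mean retained intron share, from 84.3% in Srsf11 down to Srsf9 and Srsf10, which have no transcript of that type.

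Nonsense-mediated decay transcripts held less. Srsf4, a long SR protein, had the highest share of TPM, 19.2% in replicate 1 and 18.6% in replicate 2 (18.9 ± 0.406%). Srsf3 had 11.4% and 13.5%, all of it in Srsf3-201, the poison exon transcript printed above. Shares were 8.82 ± 1.10% in Srsf1, 8.22 ± 1.39% in Srsf6 and 7.24 ± 1.53% in Srsf7. This order depends on the measure. As a share of expected counts, Srsf4 had 7.11 ± 0.0119%, below Srsf3 at 10.7 ± 1.23% and Srsf7 at 7.61 ± 1.44%. The leading transcripts of this type were Srsf1-204 with 4.29 and 4.20 TPM and Srsf7-203 with 2.03 and 2.29 TPM. Srsf2 had 1.55% and 4.63%, all in Srsf2-204 with 2.97 and 9.45 TPM. Srsf2-202, its other model of this type, stood at 0 TPM in both libraries. Its exons differ from those of the coding Srsf2-206, with 13.1 and 8.17 TPM, only at the 3′ end. In the posterior mean TPM, another deposited estimate, Srsf2-202 had 3.45 and 2.9 and Srsf2-206 had 9.12 and 4.86. How Srsf2 divides between these types thus depends on which model was given the reads. Srsf11 had 1.74% and 0.889%. Srsf5 had 0.134% and 0.0995%, all in Srsf5-208 with 0.42 and 0.35 TPM. Srsf9-205, the one such transcript of Srsf9, had 0.31 TPM in replicate 1 and 0 in replicate 2, where 3 counts would give 0.176 TPM. Srsf10 has no transcript of this type.

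Processed transcripts took their place in a few genes. In Srsf10 they held 50.3% and 50.9% of TPM, against coding shares of 49.7% and 49.1%. As shares of expected counts, in which longer transcripts weigh more, the same processed transcripts held 19.7 ± 3.81% and coding transcripts 80.3 ± 3.81%. Srsf5 had 32.5% and 24.6% in such transcripts, and Srsf9 had 9.70% and 18.1%. Srsf9 nonetheless had the highest coding share of the 10, 88.9% and 81.9%.

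Single transcripts show which models carry these shares. In Srsf5, the retained intron transcript Srsf5-212 had 104 and 143 TPM, above the leading coding transcript Srsf5-201 at 48.7 and 51.3 TPM. The processed transcript Srsf5-206 had 72.6 and 53.3 TPM. In Srsf2, the retained intron transcript Srsf2-203 had 86.4 and 106 TPM and the coding transcript Srsf2-201 had 88.8 and 74.7 TPM. The 2 libraries thus differ in which of the Srsf2 transcripts was higher.

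Srsf11 had no such dominant pair. Its leading retained intron transcripts by mean level were Srsf11-208 with 45.9 and 45.3 TPM, Srsf11-213 with 44.5 and 39.8 TPM and Srsf11-203 with 24.3 and 47.3 TPM. Its leading coding transcript, Srsf11-202, had 7.62 TPM in replicate 1 and 32.1 TPM in replicate 2. The short retained intron model Srsf11-211, of 521 bases, had 8.99 and 52.8 TPM, and was the highest Srsf11 transcript in replicate 2. Srsf11-202, Srsf11-203 and Srsf11-211 were all higher in replicate 2, as was the gene.

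Srsf3 had 18.8 and 15.3 TPM in Srsf3-210 and 16.5 and 14.1 TPM in Srsf3-204, both retained intron models, beside 12.0 and 9.42 TPM in its leading coding transcript Srsf3-202. Its poison exon transcript Srsf3-201 had 7.02 and 6.98 TPM. Srsf7 had 11.3 and 14.1 TPM in the retained intron transcript Srsf7-207 and 8.86 and 8.17 TPM in the coding Srsf7-201. In both genes the leading retained intron transcript was above the leading coding one in each library.

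Srsf6 had the opposite order, with 30.5 and 28.9 TPM in the coding Srsf6-203, 19.3 and 16.8 TPM in the retained intron Srsf6-204 and 3.88 and 4.63 TPM in the poison exon transcript Srsf6-201. Srsf4 had 12.1 and 11.2 TPM in the coding Srsf4-202, 3.97 and 3.49 TPM in the retained intron Srsf4-201, and 2.88 TPM in both libraries in Srsf4-204. Srsf1 had its coding RNA in a pair of models, Srsf1-205 with 15.0 and 15.7 TPM and Srsf1-201 with 15.1 and 11.7 TPM, whose last exons overlap: that of Srsf1-201 runs through intron 3 of Srsf1-205 and ends earlier. Srsf9 had 19.6 and 14.0 TPM in the coding Srsf9-201. Srsf10 had 18.7 and 15.4 TPM in the processed transcript Srsf10-207, above its leading coding transcript Srsf10-204 with 12.5 and 11.5 TPM.

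Transcripts that kept intron sequence did so at some introns of each gene and not at others. Introns were taken from the most abundant coding transcript, 53 over the 10 genes, and a transcript was counted for an intron when its exons covered at least 50 of the intron's bases. By that count 27 introns were covered by no annotated transcript of the gene and 26 by at least 1. Some of these introns hold an extra cassette exon, that is, an exon absent from the leading coding transcript. Transcripts with the cassette exon are part of the intron's count, long introns have more room for such models, and an intron that no annotated transcript covers cannot be assigned any TPM.

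For each gene, the intron with the highest mean share is given here, picked from these same values. In Srsf5, transcripts covering intron 5 (chr12:80947866-80949094, 1229 bases) held 62.6% of TPM in replicate 1 and 59.6% in replicate 2. In Srsf11, those covering intron 2 (chr3:158022951-158026724, 3774 bases) held 74.4% and 57.9%. In Srsf7, those covering intron 3 (chr17:80204388-80205261, 874 bases) held 62.2% and 69.8%. More than 50% of the TPM of each of these genes was therefore in models with at least 50 bases of that intron, in both libraries. Many of these models hold only part of it: no Srsf11 transcript keeps an intron of Srsf11-202 whole, and Srsf5-206, Srsf7-203 and Srsf7-204 also carry only a stretch.

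Srsf2 had 52.0% and 58.7% in transcripts covering intron 2 (chr11:116850962-116852020, 1059 bases), which begins 7 bases after the stop codon of Srsf2-201 and so lies in its 3′ UTR. Srsf3 had 50.1% and 52.2% over intron 3 (chr17:29038625-29040774, 2150 bases). Its introns 1 and 4 were covered too, by 30.4% and 29.6% and by 26.7% and 27.3%. Srsf10 had 43.6% and 43.8% over intron 2 (chr4:135858410-135861773, 3364 bases), although none of its transcripts is typed as retained intron. Srsf6 had 43.2% and 42.6% over intron 2 (chr2:162932143-162933425, 1283 bases). Srsf4 had 39.2% and 37.9% over intron 1 (chr4:131873871-131891206, 17336 bases), but 69.8 ± 4.40% in the second quantification. Among these leading introns, the lowest values were in Srsf1 and Srsf9. Intron 3 of Srsf1 had 33.8% and 22.4%, all in the coding Srsf1-201. Intron 1 of Srsf9 had 11.1% and 13.0%, and 26.1 ± 0.667% in the second quantification. Other covered introns were lower, such as Srsf11 intron 6 at 0.813 ± 0.422%.

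The splice sites of the introns kept whole in the leading retained intron transcripts of 4 genes are printed because these are the sites left unused in those models. Each 5′ splice site line has the end of the exon and the start of the intron, and each 3′ splice site line has the end of the intron and the start of the next exon. The terminal GT and AG of the intron are in capitals.
Srsf2-203 5′ splice site: aagaaaatgGTaatgtctgcggga
Srsf2-203 3′ splice site: cctctttcttttcaaacctAGatgaa
Srsf5-212 5′ splice site: agctggcagGTttgttgaaataca
Srsf5-212 3′ splice site: acataattgtcttgtgttaAGgatct
Srsf6-204 5′ splice site: gaagccgcaGTgagtccttacccc
Srsf6-204 3′ splice site: tactcccttcatgtgataaAGgtggt
Srsf7-207 5′ splice site: aagaagcagGTatttaattaatga
Srsf7-207 3′ splice site: tttttctaacttaaaaaatAGgtcac
All 4 introns start with GT and end with AG, the dinucleotides of the major spliceosome. The GC content of the introns was 40.0% in Srsf2, 36.3% in Srsf5, 48.2% in Srsf6 and 35.5% in Srsf7.

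**Figure D3:**
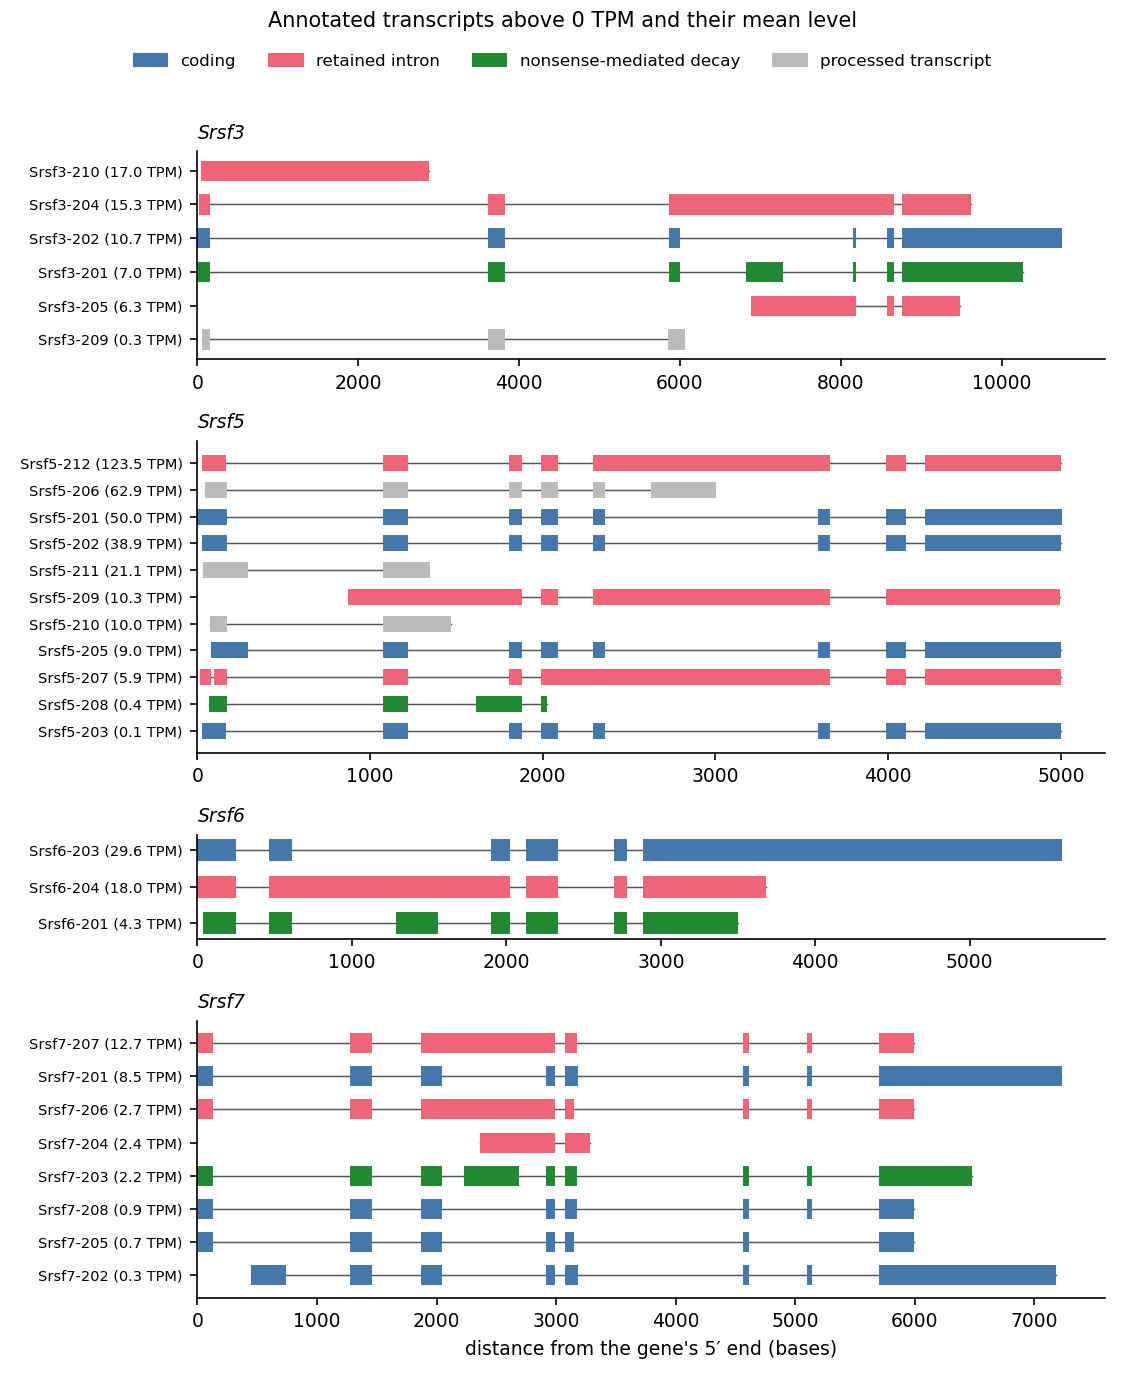
Exons (boxes) of the annotated transcripts of Srsf3, Srsf5, Srsf6 and Srsf7 above 0 TPM, by distance from the gene's 5′ end (bases), coloured by type and ordered by mean TPM of 2 libraries. The retained intron models of Srsf6 and Srsf7 run across the position where Srsf6-201 and Srsf7-203 have their extra exon.

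The cassette exons allow 3 fates to be set side by side: transcripts that splice the extra exon in, transcripts that run through it (an exon that overlaps it and extends past one of its ends), and transcripts that skip it. For the 456-base exon of Srsf3 (chr17:29039454-29039909), spliced-in transcripts held 11.4% and 13.5% of the gene's TPM, run-through transcripts 37.6% and 38.7%, and skipping transcripts 19.5% and 18.2%. The rest, 19.4 and 15.3 TPM, was in Srsf3-210 and Srsf3-209, which were assigned to none of the 3 fates. For the 460-base exon of Srsf7 (chr17:80204622-80205081), the mean shares were 7.24 ± 1.53%, 58.8 ± 3.89% and 34.0 ± 5.42%. In both genes run-through was above skipping, and skipping above inclusion, in each library.

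For the 268-base exon of Srsf6 (chr2:162932815-162933082), spliced-in transcripts held 8.22 ± 1.39%, run-through 34.7 ± 1.77% and skipping 57.1 ± 0.379%, so skipping led in both libraries. Srsf10 has a 360-base exon (chr4:135858842-135859201) that Srsf10-201 splices in, with 4.20% of TPM in replicate 1 and 10.7% in replicate 2. Srsf10-207, which splices to the start of the same exon but ends shortly past it, held 34.5% and 29.4%. For the 358-base exon of Srsf9 (chr5:115328347-115328704), no run-through model is annotated, and 11.1% and 13.0% of TPM included it. That share was 26.1 ± 0.667% in the second quantification. In Srsf4 the exons of 184 and 198 bases were included by 19.2% and 18.6% of TPM, and by 34.9 ± 3.15% in the second quantification. In Srsf11 the 117-base exon was included by 1.28% and 0.889% of TPM and the 109-base exon by 1.42% and 0.889%, in both cases mainly through Srsf11-206 with 1.67 and 2.23 TPM. The second quantification put 11.0% and 11.7% on the 109-base exon. Another exon, of 64 bases (chr3:158024698-158024761), was included by 13.9% and 18.9% of TPM, all through the retained intron model Srsf11-203.

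High retained intron shares were not confined to the SR genes. Of 5233 protein-coding genes whose mean level reached 10 TPM, 72.2% have a retained intron model and 35.6% a nonsense-mediated decay model. Among the 3777 genes with a retained intron model, 22.7% had more than 50% of their TPM in that type, and 3 of the 8 members did (Srsf11, Srsf3 and Srsf7). The members' median was 45.2%, beside 33.3% over all 3777 genes, whose middle range ran from 19.5% to 48.4%. Srsf11 was above 99.0% of these genes, Srsf3 above 94.4%, Srsf7 above 87.0% and Srsf2 above 75.3%, whereas Srsf1 was above 45.7% and Srsf4 above 25.3%. The members thus spread over most of the range.

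More TPM in retained intron than in coding transcripts was found in 29.9% of those genes, and in 5 of the 8 members by their means (4 in replicate 1 and 5 in replicate 2, with Srsf2 the gene that differed). Among 1865 genes with a nonsense-mediated decay model, 31.3% had more than 10% of their TPM there, and 2 of the 9 members did (Srsf4 and Srsf3). The median was 7.24% over the 9 members and 4.04% over all 1865 genes.

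**Figure D4:**
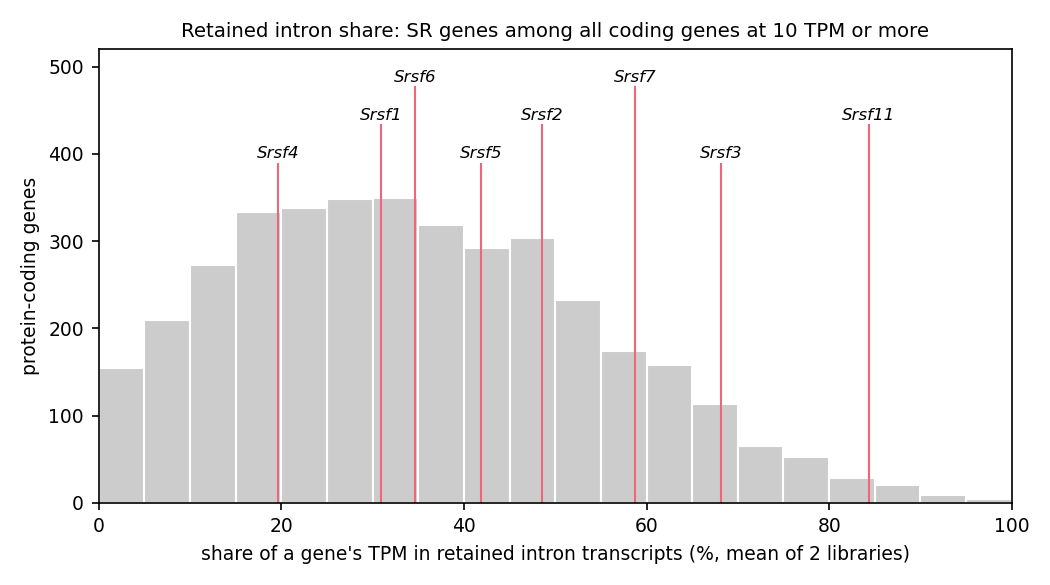
Number of coding genes with a mean level from 10 TPM up (grey bars, bins of 5%) by the share of TPM in retained intron transcripts (%, mean of 2 libraries), with the 8 SR genes that have such a transcript as lines. Srsf4 lies at 19.7% and Srsf11 at 84.3%, beside a median of 33.3% over all 3777 genes.

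Other genes of splicing covered a wide range as well. All 18 genes of SR-related proteins and SR kinases were above 1 TPM. Their median retained intron share was 45.5%, with 6 of 18 over 50%, and their median nonsense-mediated decay share was 10.3% over the 15 with such a model, with 8 over 10%. Rsrp1, an arginine and serine rich protein gene, had 620 and 542 TPM and a retained intron share of 72.4 ± 3.53%. Srrm2, a scaffold of nuclear speckles, followed with 242 and 235 TPM, and Scaf1 was lowest with 25.1 and 24.4 TPM. Srpk1, a kinase that phosphorylates SR proteins, had a retained intron share of 62.8 ± 2.97%.

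The hnRNP proteins, which often oppose SR proteins at splice sites, had a median retained intron share of 24.3% over the 13 of 18 genes with such a model and a level of 10 TPM or more, and 3 were over 50%. Hnrnpa2b1 was highest with 486 and 472 TPM and a share of 62.7 ± 4.66%. Hnrnph1 followed with 189 and 217 TPM, Hnrnpa0 was lowest with 11.2 and 6.57 TPM, and Hnrnpl had the highest share, 64.3 ± 1.45%. Among 10 genes of splice site recognition, 6 of 9 were over 50% and the median was 63.5%. Luc7l2, a U1-associated factor, had 244 and 255 TPM, and Snrnp70, a U1 protein, had 132 and 129 TPM with a share of 69.5 ± 0.0741%. U2af1, which binds the AG of the 3′ splice site, had the highest share, 71.7 ± 0.439%, and Snrpc was lowest with 7.06 and 6.22 TPM.

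All 14 genes of the decay machinery itself were above 1 TPM. Their median level was 14.1 TPM, beside 52.6 TPM for the SR genes. Smg1, the kinase that phosphorylates Upf1, was highest with 74.3 and 85.8 TPM, Smg9, its partner, followed with 24.4 and 26.3 TPM, and Smg8 was lowest with 3.95 and 3.89 TPM. The highest retained intron shares were those of Smg9, 74.2 ± 3.13%, and Smg5, 60.8 ± 4.94%, and none of the 3 genes with a nonsense-mediated decay model was over 10%.

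The libraries were set side by side gene by gene, on log2(TPM + 1), relative to the median gene, which was 0.10 higher in replicate 1. These values compare libraries, not conditions, and carry no test. Of 13951 genes that averaged 1 TPM or more, 4.42% differed more than 2-fold, and none of the 10 members did. Srsf11 was farthest apart, at -0.62 for replicate 1 minus replicate 2, followed by Srsf1 at -0.32, Srsf5 at -0.27 and Srsf2 at -0.19. Srsf9 was on the other side at 0.27. Replicate 1 was lower for 6 of 10 members, beside 50% of all those genes and 50.5% of the protein-coding ones. Over 8 settings of scaling, pseudocount or quantification, Srsf1, Srsf2, Srsf5 and Srsf11 were lower in replicate 1 in all 8. Srsf4, Srsf7 and Srsf9 were higher in all 8. Srsf6 was lower in 4 and Srsf10 in 6. Srsf3 was lower in 1, the second quantification, where it stood at -0.13. On the same centred scale 5 of 6 macrophage markers were higher in replicate 1, from 0.09 for Itgam to 1.12 for Cd14, and Csf1r stood at -0.03. Their summed level was 3526 TPM in replicate 1 and 2108 in replicate 2. Whether that gap has a part in the members' differences was not tested.

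Single transcripts moved more than genes. Of 34114 transcripts with a mean of at least 1 TPM, 11% differed more than 2-fold between libraries, and 10 of the members' 58 did. Replicate 1 was lower in 9 of the 10, among them Srsf11-211, Srsf11-202, Srsf1-203 and Srsf2-204. Over all 34114 transcripts, 5.65% were more than 2-fold lower in replicate 1, which is 51.2% of those past 2-fold. In the second quantification 4 of the 10 were again more than 2-fold apart in the same direction, and Srsf2-204 moved from -1.48 to -0.14. The exception was Srsf7-206, a retained intron model whose splice sites match those of Srsf7-207 except at the end of exon 4. It had 5.37 TPM in replicate 1 and 0 in replicate 2, where 3 counts would give 0.123 TPM. In the whole set of 85 transcripts, 61 were above 0 in both libraries and 9 were at 0 in both.

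The second quantification deposited for the same libraries gave the same order of gene levels except that Srsf1 and Srsf6 changed places. Their summed level was lower, 431 and 730 TPM. Over the 10 genes together it put 31.5 ± 2.23% of TPM in coding, 46.3 ± 3.73% in retained intron, 5.49 ± 0.323% in nonsense-mediated decay and 16.7 ± 1.83% in processed transcripts. Retained intron shares were 71.9 ± 0.594% in Srsf11, 56.2 ± 0.343% in Srsf3 and 55.3 ± 3.80% in Srsf7, the same 3 genes over 50%. More retained intron than coding TPM was again found in 5 genes by their means, with Srsf4 in place of Srsf2. Both genes differed between libraries. Srsf4 had 29.6% and 40.3% retained intron beside 33.3% and 27.0% coding. Srsf2 had 43.5% and 53.7% retained intron beside 55.9% and 42.7% coding.

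Many shares differed between the quantifications, and those of Srsf4, Srsf11 and Srsf3 are given as examples. Srsf4 had 61.4 ± 0.914% coding TPM in the first and 30.2 ± 4.40% in the second, where its retained intron share was 35.0 ± 7.55% and its nonsense-mediated decay share 34.9 ± 3.15%. Srsf11 went from 1.32 ± 0.605% to 11.5 ± 0.285% in nonsense-mediated decay transcripts, nearly all in Srsf11-210, a 397-base model with 0.81 and 0 TPM in the first quantification. Srsf3 had 20.3 ± 1.50% in processed transcripts in the second, beside 0.559 ± 0.791% in the first. Coding shares also differed in Srsf9, at 85.4 ± 4.98% and 64.1 ± 1.80%, and in Srsf10, at 49.4 ± 0.440% and 39.8 ± 0.965%.

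**Figure D5:**
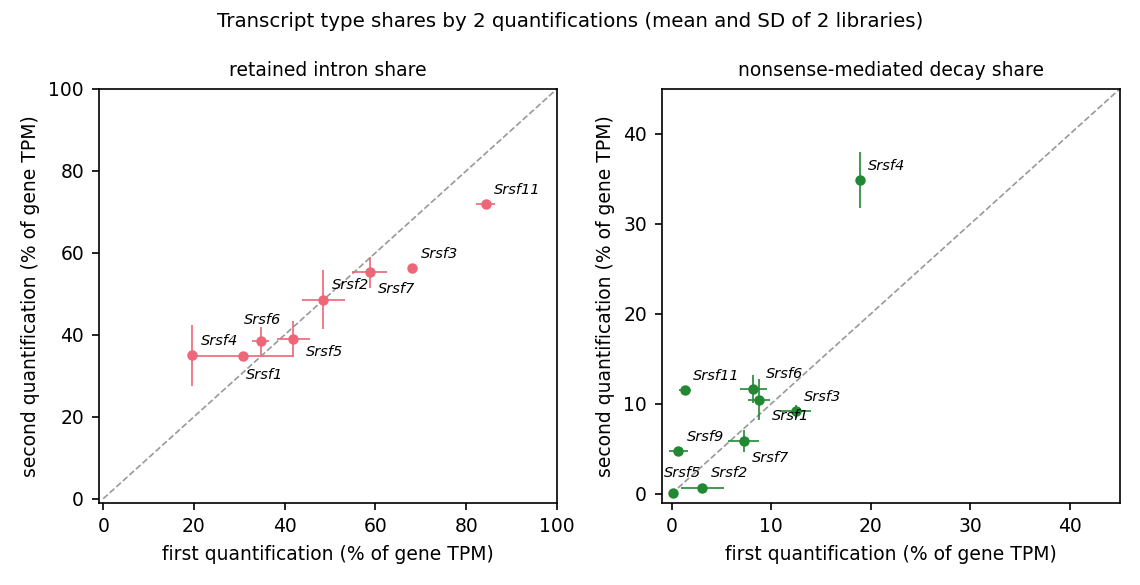
Retained intron share (left) and nonsense-mediated decay share (right) of each SR gene (% of gene TPM) in the first quantification (horizontal) and the second (vertical), as means with SD of 2 libraries, with a dashed line of equal values. Srsf4 lies farthest above the line on the right, at 18.9% in the first and 34.9% in the second.

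Sequence shared with other genes also bears on these values. No stretch of 31 bases was shared among the 10 genes, and Srsf6 and Srsf9 shared none with any other gene. Srsf4 shared 41.0% of its 31-base stretches with Gm12992 on the opposite strand, which had 1.85 and 1.57 TPM. Srsf2 shared 23.1%, mostly with genes on the opposite strand. It overlaps Mettl23 (8.71 and 10.6 TPM) and Mfsd11 (54.9 and 53.2 TPM) there, and how strand was handled is not given in the sources used here. Reads of Srsf2 and these genes may therefore be mixed where they overlap. Srsf5, Srsf3 and Srsf10 shared 14.2%, 13.9% and 12.0%, most of all with the processed pseudogenes Gm12966 and Gm5446 and with Gm12355, each below 2 TPM in both libraries. On the same strand, A930004J17Rik (13.15 and 12.77 TPM) overlaps Srsf4 over 4610 bases. Gm43362 (7.14 and 7.88 TPM) overlaps Srsf11 over 2470 bases, also on the same strand. RNA counted to these genes is not part of the members' levels.

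The labelled cell type was checked by its markers. All 6 macrophage markers were above 1 TPM, the lowest value being 34.5 TPM for Itgam, and none of 8 markers of other cells reached 1 TPM. Of those 8, 5 were at 0 in both libraries, and their summed level was 0.13 and 0.82 TPM.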

How the data were processed

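Expected counts and TPM per gene and transcript were deposited by the authors for each library. Per the file headers and the deposited notes, reads aligned to the transcriptome (mm10, GENCODE M21) gave these values, and a second transcript table was made from the reads. The programs are not given in the sources used here; column names are those that RSEM and, for the second table, kallisto write. TPM values, as deposited, add up to a fixed total in every table. Each deposited value also has interval bounds (a signal column) set around its posterior mean, which are not printed here. Effective lengths gave the TPM of 3 counts, the limit for a count of 0; limits cover counting error only.

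Shares were TPM of each transcript type over the gene's TPM, with mean and SD of 2 libraries. With 1 group, no test was run and no p-value computed. The share background used coding genes whose mean reached 10 TPM. Library differences used a pseudocount of 1 TPM. Named were all 10 members, each one's highest coding, retained intron and nonsense-mediated decay transcript, transcripts with at least 20% of a gene, Srsf12, and per list the 2 highest, the lowest and the 2 highest retained intron shares; other transcripts were chosen after their values were seen. Members and lists were chosen with earlier results of these data known. Analyses used Python 3.11.15, numpy 2.4.6 and pandas 2.3.3. Share and difference calculations were tested on simulated counts, which did not simulate how reads are divided among overlapping transcripts.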

Additional observations from a re-analysis of the deposited data

How the results depend on the processing

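The median retained intron share over the 10 genes was 38.3% (with Srsf9 and Srsf10 at 0), 42.0% when processed transcripts were left out of the total, and 37.6% to 41.6% without either replicate. The median nonsense-mediated decay share of 5.17% became 7.52% in the second quantification and 1.57% as a share of expected counts, where longer transcripts weigh more, with 3.95% to 6.34% without either replicate. The median coding share of 48.2% became 39.3% and 56.4% in the same alternatives, with 44.8% to 51.5% without either replicate. Genes with more retained intron than coding TPM numbered 5, or 4 to 5 without either replicate. The summed level of 1022 TPM became 581 TPM in the second quantification and 3394 TPM when rescaled to protein-coding genes, with 968 to 1076 TPM without either replicate. The median difference between libraries, -0.03, changed sign to 0.068 without centring, 0.0063 when centred on all genes above 0, 0.00096 when rescaled to coding genes and 0.10 with the posterior mean TPM, so no direction was read from it. The share of all genes over 50% retained intron, 22.7%, was 29.0% in the second quantification. Of the 17 single retained intron and nonsense-mediated decay shares, 12 moved by more than the spread between libraries in the second quantification, 14 as shares of counts and 4 with the posterior mean. With 2 libraries, leaving out either cannot move a mean past that spread, so this comparison says nothing of stability. The cause was not tested. No paired analysis was possible because there is only 1 group. For the members' transcripts at 0, 3 counts would give between 0.0925 and 1.88 TPM, depending on length and library.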
